A study of Mus musculus with 6 samples.

Results

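The 8 genes described here encode transcription factors of the cartilage program, Sox9, Sox5, Sox6, Mef2c, Runx1, Runx3, Nkx3-2 and Foxc1. They were taken by gene symbol, and all 8 are among the 52081 genes that the 6 libraries list in common. Femoral fracture calluses of 12-week-old mice were dissociated at 14 dpf and sequenced as 3′ single-cell libraries, with transcripts counted by unique molecular identifiers (UMIs). There were 3 control libraries (Piezo1 f/f) and 3 knockout libraries (Piezo1 Col2a1). The study gives differing numbers of mice for this experiment. The labels do not say whether a library is a single mouse or a pool. The study's methods give tamoxifen at 75 mg/kg to the mice on 5 days in a row from day 5. The knockout mice carry an inducible Cre recombinase driven by Col2a1 sequences, Col2CreERT in the labels and Col2CreERT2 in the study's methods. Deletion of Piezo1 thus depends on the tamoxifen and takes place in cells that use this promoter at that time. In the labels the deleted gene is spelled Piezo3, and the control genotype is written wt.

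SOX9 is the master regulator of chondrocyte fate, and SOX5 and SOX6 bind beside it to switch on the genes of the cartilage matrix. As chondrocytes mature they enlarge into hypertrophic chondrocytes (HTCs), which make collagen X, and RUNX proteins and MEF2C promote this step. In endochondral ossification, hypertrophic cartilage is then replaced by bone, and some HTCs can become osteoblasts.

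The 8 genes lie on GRCm38 (GENCODE M21 annotation) at chr11:112782224-112787760 on the plus strand for Sox9, chr6:143828425-144781977 on the minus strand for Sox5, chr7:115470872-116038796 on the minus strand for Sox6 and chr13:83504034-83667080 on the plus strand for Mef2c. Runx1 lies at chr16:92601466-92826149 on the minus strand, Runx3 at chr4:135120652-135177990 on the plus strand, Nkx3-2 at chr5:41761483-41764501 on the minus strand and Foxc1 at chr13:31806633-31812476 on the plus strand. The gene models Gm44068 and Sox5it overlap Sox5 on the same strand. Genes on the opposite strand overlap Sox5, Sox6 (Gm45025 and Sox6os), Runx1 (Gm26626) and Runx3 (Gm16224), and whether the counting used strand is not stated in the sources used here.

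Sox5 and Mef2c were the members with the lowest and the highest fold change between the cartilage stages, and the 250 bases before a RefSeq transcript start of each (GRCm38.p6) are shown for context. Capitals mark the letters ACAAT or ATTGT, the core that SOX proteins bind, searched on both strands. The Sox5 window is chr6:143947107-143947356 on the minus strand and lies inside the annotated gene span, and the Mef2c window is chr13:83503784-83504033 on the plus strand.
Sox5: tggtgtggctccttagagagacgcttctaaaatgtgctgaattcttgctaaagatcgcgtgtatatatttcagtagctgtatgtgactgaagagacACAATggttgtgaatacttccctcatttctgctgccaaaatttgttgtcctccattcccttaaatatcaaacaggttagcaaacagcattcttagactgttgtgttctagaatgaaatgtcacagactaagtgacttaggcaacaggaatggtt
Mef2c: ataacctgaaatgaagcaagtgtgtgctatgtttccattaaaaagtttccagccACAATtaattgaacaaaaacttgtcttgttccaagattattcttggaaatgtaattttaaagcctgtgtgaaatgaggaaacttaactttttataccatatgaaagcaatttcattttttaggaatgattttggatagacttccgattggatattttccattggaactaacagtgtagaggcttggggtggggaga
Each window shown holds 1 match, and 27.4% of the 32536 distinct promoter windows of this length hold at least 1. Mef2c has 3 such windows at RefSeq starts, and those not shown hold no match. Neither window shown holds the RUNX core TGTGGT or its reverse complement ACCACA, which 13.96% of windows hold. A match describes the letters and is not a binding site.

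After filters on cells, 41652 cells were kept, and the libraries held 57626530 to 103784364 UMIs. Pairs of libraries shared 4 to 36 cell barcodes. Cells were clustered without the 8 members, and clusters were called "X-like" from marker genes. Chondrocyte-like cells (3860 cells) formed 3 clusters. The first was led by Sfrp5 (1641 cells), the second by Epyc and matrix genes such as Matn1 and Ucma (1594 cells), and the third by Chil1 and Lcn2 (625 cells). The HTC-like class was 1 cluster led by Ihh and Col10a1 (680 cells). The name of the Chil1 cluster depended on the clustering settings. At a higher resolution, a cluster led by Chil1 and Lcn2 (436 cells) was called HTC-like. At a lower resolution, Chil1, Col10a1 and Ihh together led the HTC-like cluster (1278 cells). Without integration of the libraries, a cluster led by Chil1 and Lcn2 (511 cells) was called fibroblast-like. Mean Col10a1 was 665 UMIs per 1000000 UMIs of the sum (CPM) in the Sfrp5 cluster, 2608 in the Chil1 cluster, 7094 in the Epyc cluster and 29146 in the HTC-like cluster. A cluster that met the pre-adipocyte markers was led by Mmp9, Gdpd2 and Kcnk2, and 1 with Tnmd and Thbs4 was led by Angptl7 and Kera, so both are called by their genes.

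Knockout library 2 stood apart in its cartilage. It held 72 chondrocyte-like cells, 52 of them in the Chil1 cluster, against 339 to 1429 in the other libraries. Col2a1, the main collagen of cartilage, was 6434 CPM in its chondrocyte-like cells, against 16083 in control library 3 and 48142 to 58428 in the other libraries. Knockout library 3 had Xist at 574 CPM and Y-linked genes at 0.0296 CPM, and the other libraries had Xist at 0.107 to 0.163 CPM and Y-linked genes at 108 to 209 CPM. The study's methods state that all mice were male, which the values of this library go against. Differences by genotype are therefore also given without knockout library 2 for Sox9, Sox6 and Sox5. Those of Sox9 and Sox6 are also given without knockout libraries 2 and 3. For all tested members, ranges over fits that left out each library in turn are given further below. No values without these libraries are given for Piezo1.

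Sox9 was highest in chondrocyte-like cells. Its level there was 996, 781 and 646 CPM in control libraries 1 to 3 and 1070, 80.0 and 552 CPM in knockout libraries 1 to 3. Knockout library 2 lay below all others, and the other 5 libraries of the groups overlapped. Over the 6 libraries, mean Sox9 was 688 ± 358 CPM (SD) in chondrocyte-like, 494 ± 279 in HTC-like, 355 ± 153 in PSC-like (periosteal progenitor), 231 ± 147 in fibroblast-like and 207 ± 110 in osteoblast-like cells. The fibroblast-like class pools a cluster led by Saa3 (1021 cells) with a cycling cluster led by Top2a and Mki67 (1114 cells), which met 4 fibroblast and 5 chondrocyte markers, and Sox9 was 235 ± 109 CPM in the first and 235 ± 161 CPM in the second. It averaged 42.9 ± 40.04 CPM in T or NK cell-like, 39.1 ± 30.2 in neutrophil-like and 30.9 ± 25.6 in pericyte-like cells. All 17 steps between neighbours in this order of 18 classes were within the spread between libraries. All classes were tested in 1 fit with edgeR's quasi-likelihood test. Per contrast, 24% to 73% of all genes were called, and 13.5% to 42.6% were called higher in chondrocyte-like cells. Of the 119 pairs of a member and another class, 99 were called, 95 of them higher in chondrocyte-like cells. Sox9 was above 16 of 17 other classes, with HTC-like cells as the exception in this fit, whose spread is shared by all classes. Against PSC-like cells, the log2 difference of 0.90 ± 0.36 (SE) was near the threshold (adjusted p = 0.0479), and the call was lost without any library but knockout 2 (adjusted p 0.0588 to 0.169). Over the 18 classes, Sox9 was most alike in pattern to Peg3 (Pearson's r = 0.98), Hs3st3a1 (0.96) and the cartilage collagen gene Col11a1 (0.95).

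Sox5 and Sox6, whose proteins lack a transactivation domain and act with SOX9, were each matched in level by 1 class outside cartilage. Sox5 in chondrocyte-like cells was 111, 105 and 81.5 CPM in control libraries 1 to 3 and 95.6, 14.4 and 54.9 CPM in knockout libraries 1 to 3. The groups overlapped, and knockout library 2 was again lowest. Pericyte-like cells had as much (81.9 ± 27.4 CPM, against 77.0 ± 36.6 in chondrocyte-like cells), and the log2 difference of 0.33 ± 0.28 did not pass the test (edgeR adjusted p = 0.347), although it was called without knockout library 2 (0.59, adjusted p = 0.0181). The next classes in order were fibroblast-like at 39.7 ± 25.3 and PSC-like at 33.6 ± 9.34 CPM, and the step from chondrocyte-like to fibroblast-like cells was larger than either SD. Chondrocyte-like cells were above the 16 other classes in Sox5 in the test. Its closest patterns were those of Gm44068 (r = 0.92), which overlaps it on the same strand, Cry2 (0.85) and Ndufa4l2 (0.85).

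Sox6 in chondrocyte-like cells was 191, 127 and 103 CPM in control libraries 1 to 3 and 183, 44.8 and 97.8 CPM in knockout libraries 1 to 3, with knockout library 2 lowest and the groups overlapping. Its mean was 125 ± 55.6 CPM (SD) there, 110 ± 102 in erythroid-like cells (4 libraries) and 90.1 ± 44.3 in HTC-like cells, in which order no step was larger than the spread. Sox6 is known to act in red cell maturation. The difference between chondrocyte-like and erythroid-like cells was 0.24 ± 0.36 (log2, edgeR adjusted p = 0.609). Its closest patterns were those of Yipf4 (r = 0.87), the aggrecan gene Acan (0.87) and Col11a1 (0.85).

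**Figure D1:**
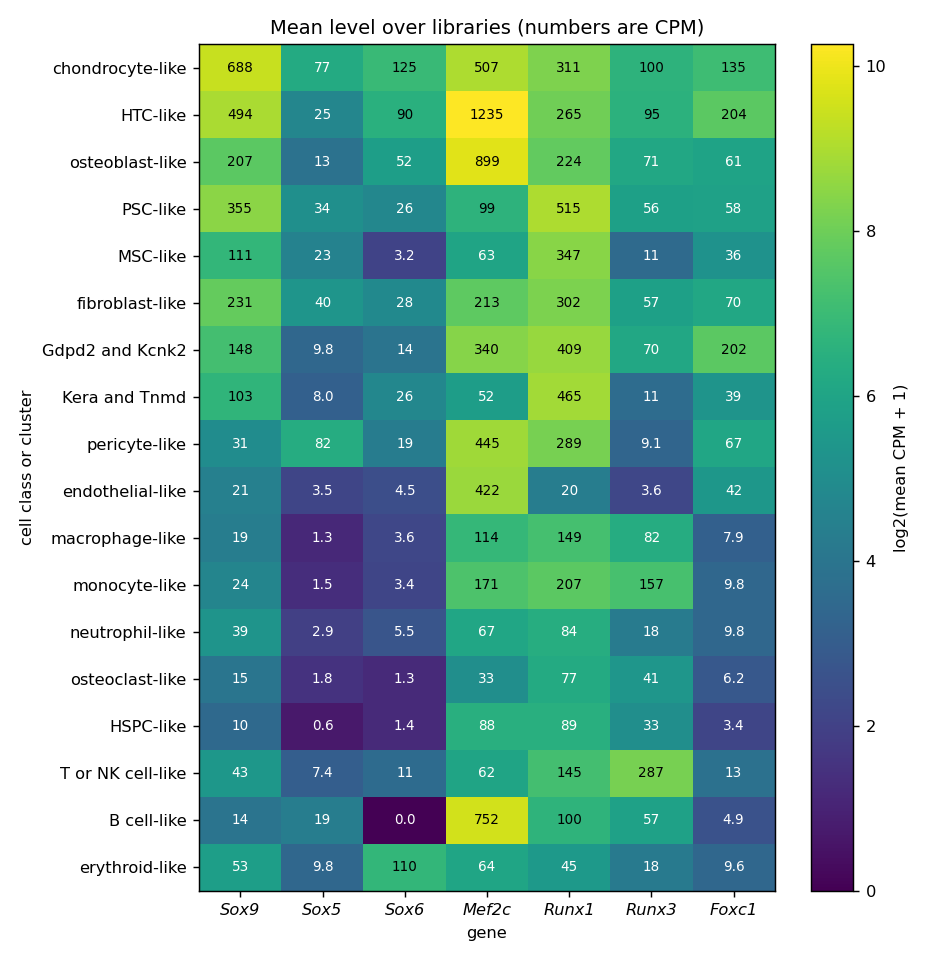
Mean level of 7 members (columns) in 18 cell classes (rows), as CPM averaged over libraries with at least 10 cells of the class. Colours are on a log2 scale, and the highest values are 1235 CPM of Mef2c in HTC-like cells and 899 CPM of Mef2c in osteoblast-like cells.

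Mef2c, which encodes a MADS-box factor that drives hypertrophy, was highest in HTC-like cells among the 18 classes. Its level there was 1645, 1700 and 684 CPM in control libraries 1 to 3 and 1406, 742 and 1235 CPM in knockout libraries 1 to 3. In chondrocyte-like cells of the same libraries it was 713, 281 and 266 CPM and 634, 673 and 478 CPM. The HTC-like value was the higher one in 6 of 6 libraries, with the smallest gap in knockout library 2. Mean Mef2c then followed in osteoblast-like (899 ± 116 CPM), B cell-like (752 ± 181, 3 libraries), chondrocyte-like (507 ± 198), pericyte-like (445 ± 128) and endothelial-like cells (422 ± 32.5). The steps from HTC-like to osteoblast-like and on to B cell-like cells were within the spread, and that from B cell-like to chondrocyte-like cells was not. The test did not call chondrocyte-like against B cell-like cells (log2 difference -0.26 ± 0.39, edgeR adjusted p = 0.648). Chondrocyte-like cells were below osteoblast-like cells by 0.94 ± 0.30 (log2, edgeR adjusted p = 0.0128), a call lost without control library 2 (0.0763) or control library 3 (0.0774). They were above 12 of the 17 other classes and below 2, the HTC-like and osteoblast-like cells. Its closest patterns were those of Epha2, A3galt2 and Gm10734, each at r = 0.84.

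The RUNX family members were spread over more classes. Runx1, known for its part in blood formation and in early chondrocytes, was highest in PSC-like cells (515 ± 132 CPM), where it was 565, 567 and 655 CPM in control libraries 1 to 3 and 590, 416 and 298 CPM in knockout libraries 1 to 3. In chondrocyte-like cells it was 272, 382 and 399 CPM in the control libraries and 258, 381 and 172 CPM in the knockout libraries, and the groups overlapped. Knockout library 3 was lowest in both classes. PSC-like and chondrocyte-like cells differed by 0.48 ± 0.20 (log2), which missed the threshold (edgeR adjusted p = 0.0549). It passed without control library 3 (0.0455) or knockout library 2 (0.00881). Chondrocyte-like cells were above 10 of 17 other classes, and the 7 without a call were the PSC-like, MSC-like (mesenchymal stem cell), fibroblast-like, HTC-like and osteoblast-like cells and the 2 clusters called by their genes. The fit scales each sum by TMM (trimmed mean of M-values), and pericyte-like cells, at 288 ± 82.5 CPM against 311 ± 91.0, were among the classes called lower (by 0.57 ± 0.20, adjusted p = 0.0146). The largest gap was to endothelial-like cells (19.7 ± 5.51 CPM, log2 difference 4.42 ± 0.23, edgeR adjusted p = 1.91e-30). Its closest patterns were those of Gm47445 (r = 0.91), Meis1 (0.90) and Pdzd4 (0.86).

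Runx3, best known in T cells and also active in chondrocyte maturation, was highest in T or NK cell-like cells (287 ± 77.4 CPM) and monocyte-like cells (157 ± 54.9 CPM). In chondrocyte-like cells it was 154, 85.0 and 64.2 CPM in control libraries 1 to 3 and 152, 68.0 and 74.7 CPM in knockout libraries 1 to 3, so that the first library of each group was highest. Chondrocyte-like cells were below T or NK cell-like cells by 1.06 ± 0.27 (log2, edgeR adjusted p = 0.00038). They were below monocyte-like cells by 0.56 ± 0.26 (adjusted p = 0.0484), a call lost without control library 2 (0.166), control library 3 (0.0863) or knockout library 3 (0.0945). They were above 11 of the 17 classes. Its closest patterns were less close than for the other members, those of Helb (r = 0.78), Mob3b (0.77) and Dhx34 (0.75).

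Among the 18 classes, Foxc1, a forkhead gene needed for skeletal development, was highest in HTC-like cells and in the Gdpd2 and Kcnk2 cluster. In HTC-like cells it was 243, 211 and 160 CPM in control libraries 1 to 3 and 317, 122 and 169 CPM in knockout libraries 1 to 3. In chondrocyte-like cells it was 162, 147 and 93.9 CPM and 158, 110 and 139 CPM. Within each of the 6 libraries the HTC-like value was higher. The Gdpd2 and Kcnk2 cluster was at 202 ± 43.5 CPM, beside 204 ± 69.6 in HTC-like and 135 ± 27.3 in chondrocyte-like cells, and its log2 difference from chondrocyte-like cells (0.24 ± 0.22) did not pass the test (edgeR adjusted p = 0.437). The steps from this cluster to chondrocyte-like and on to fibroblast-like cells (70.0 ± 16.9 CPM) were larger than either SD. Its closest patterns were those of Enah (r = 0.98), Rhod (0.97) and Gm37018 (0.96). These correlations rest on 18 class means from the same libraries and carry no test.

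Nkx3-2, which encodes a repressor that holds chondrocytes back from hypertrophy, was almost undetected. It had 32 UMIs in the 41652 cells (0.0730 CPM), of which 22 were in chondrocyte-like cells (0.256 CPM). Osteoblast-like cells held 2 of its UMIs and fibroblast-like cells 3. HTC-like cells held 0, which allows up to 0.191 CPM. It passed no filter on low counts and was not tested. Its closest patterns, from so few UMIs, were those of Kcnip4 (r = 0.85), Gm16070 (0.85) and Spink5 (0.84). The other 7 members were tested.

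Shares of cells with a UMI were compared after thinning every cell to 500 UMIs, with neutrophil-like cells as a class that should lack the SOX genes and Foxc1. Median depth was 18211.5 UMIs in chondrocyte-like, 19744.5 in HTC-like and 2116.5 in neutrophil-like cells. Sox9 was found in 26.8% of chondrocyte-like cells (95% Clopper-Pearson interval 25.4 to 28.2), 18.4% of HTC-like cells (15.5 to 21.5) and 1.41% of neutrophil-like cells (1.07 to 1.81). Without thinning the shares were 90.7%, 87.2% and 6.76%. Sox5 was found in 3.94%, 1.18% and 0.0485% of the thinned cells of these classes, Sox6 in 6.71%, 4.41% and 0.267%, and Foxc1 in 7.10%, 10.1% and 0.364%. These genes were thus above the neutrophil-like level in both cartilage classes. Mef2c was found in 16.2% of chondrocyte-like and 45.4% of HTC-like cells (41.7 to 49.3) after thinning. Intervals cover counting error only. Sox9 after thinning was at 1.37% in endothelial-like and 1.26% in macrophage-like cells, at or below the neutrophil-like share, and is read as background there.

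**Figure D2:**
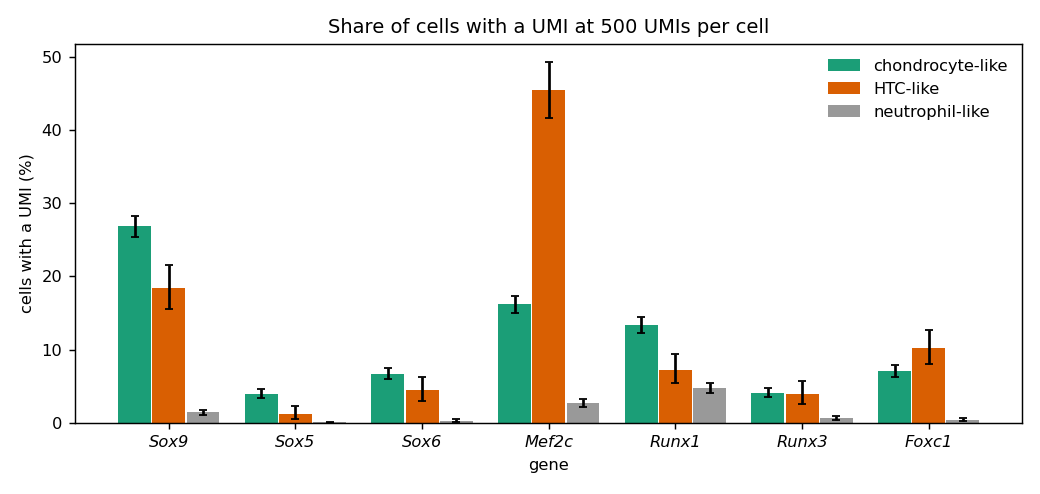
Share of cells with at least 1 UMI of each member (vertical axis, percent) after thinning each cell to 500 UMIs, over all libraries. Bars are chondrocyte-like, HTC-like and neutrophil-like cells with 95% Clopper-Pearson intervals, and Mef2c is at 16.2% in chondrocyte-like and 45.4% in HTC-like cells.

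To compare stages, UMIs were summed per library and class, and HTC-like sums were tested against chondrocyte-like sums within the 6 libraries, in a fit of these classes alone. Of all genes tested, 33.8% were called, 15.1% higher and 18.7% lower in HTC-like cells. Of the 7 members tested, 5 were called, and they went both ways. Mef2c rose in HTC-like cells by 1.1995 ± 0.22 (log2, SE, edgeR adjusted p = 0.000269). Sox5 fell by 1.70 ± 0.21 (adjusted p = 2.86e-06), and Sox6 fell by 0.55 ± 0.14 (adjusted p = 0.00423). These 3 calls held in the 14 alternatives that gave a value. Without integration of the libraries the contrast gave none. There the HTC-like cluster (444 cells) held 423 cells of knockout library 3 and 3 to 5 cells of each other library. A cluster led by Col10a1 (933 cells) was left unnamed there. The HTC-like class over 6 libraries thus depends on integration.

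In HTC-like cells Sox5 was 32.7, 19.5 and 24.2 CPM in control libraries 1 to 3 and 32.9, 27.8 and 15.2 CPM in knockout libraries 1 to 3, below the chondrocyte-like value in every library but knockout 2. The HTC-like values of all 6 libraries lay within 15.2 to 32.9 CPM, and the chondrocyte-like values apart from knockout library 2 lay between 54.9 and 111 CPM. Control libraries 2 and 3 and knockout library 2 held 16, 16 and 23 HTC-like cells, so their HTC-like values rest on few cells. Sox6 was lower in HTC-like cells in 6 of 6 libraries, at 146, 82.1 and 63.0 CPM in the control and 141, 36.1 and 71.8 CPM in the knockout libraries.

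Sox9 fell by 0.54 ± 0.17 in HTC-like cells (edgeR adjusted p = 0.0216), and its value was lower in 5 of 6 libraries. This call was lost without control library 1 (adjusted p = 0.0707), control library 3 (0.0866), knockout library 1 (0.0650) or knockout library 3 (0.0767), and at clustering resolution 0.4 (0.0528). Foxc1 rose by 0.46 ± 0.15 (adjusted p = 0.0222), a call lost without control library 1 (0.0815), without knockout library 1 (0.137) or with no filter on low counts (0.0564). Runx1 (-0.55 ± 0.22, adjusted p = 0.0594) and Runx3 (-0.19 ± 0.15, adjusted p = 0.342) did not pass. Runx1 passed without control library 3 (0.0172), knockout library 1 (0.0481) or knockout library 2 (0.0412), with no filter on low counts (0.00167) and with at least 30 cells per sum (0.00244). Runx3 passed with at least 30 cells per sum (-0.37, 0.0075) and with more doublets removed (-0.32, 0.0328). The number of all genes called was 5028, and it was 3148 without control library 1 and 2960 without knockout library 3, which hold most of the HTC-like cells (115 and 457 of 680).

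**Figure D3:**
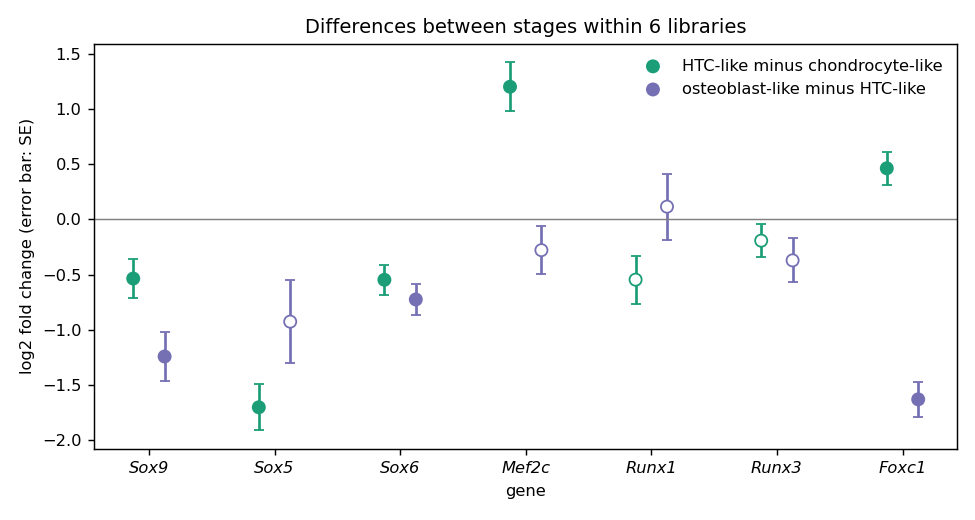
Log2 fold change of 7 members (vertical axis, with SE) between HTC-like and chondrocyte-like cells and between osteoblast-like and HTC-like cells, within 6 libraries. Filled points passed an edgeR adjusted p of 0.05, among them Mef2c at 1.1995 and Sox5 at -1.70 in the first comparison and Foxc1 at -1.63 in the second.

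The separate clusters give finer steps. On the CPM scale, Mef2c was lowest in the Sfrp5 cluster and highest in the HTC-like cluster, with the Epyc cluster between them, in 5 of the 5 libraries with at least 10 cells of each. Mef2c was 245, 104 and 170 CPM in the Sfrp5 cluster of control libraries 1 to 3 and 233 and 241 CPM in that of knockout libraries 1 and 3. Knockout library 2 had 7 cells in this cluster and is left out of it. In the Epyc cluster it was 1065, 422 and 529 CPM in the control and 945, 696 and 621 CPM in the knockout libraries. The lowest Epyc value was above the highest Sfrp5 value. Mean Mef2c was 508 ± 175 CPM in the Chil1 cluster, so the 4 clusters stood in the same order for Mef2c as for Col10a1. Mean Ihh stood in this order too, but Mmp13, Panx3, Pth1r, Ibsp and Spp1 did not. Mmp13 was highest in the Chil1 cluster (5600 CPM) and lowest in the Epyc cluster (156 CPM). Panx3 was highest in the Epyc cluster (741 CPM, against 376 CPM in the HTC-like cluster).

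The Epyc cluster was above the Sfrp5 cluster by 2.05 ± 0.23 for Mef2c (log2, edgeR adjusted p = 6.33e-07), where 22.8% of all genes were called and 3 of 7 members were. Runx3 was higher by 0.47 ± 0.14 (adjusted p = 0.0133), a call lost without control library 2 (0.0782). Runx1 was lower by 0.87 ± 0.26 (adjusted p = 0.0188), a call lost without control library 1 (0.110), knockout library 1 (0.0705) or knockout library 3 (0.0651). Sox9 (0.32 ± 0.20, adjusted p = 0.272) missed the threshold but passed without control library 3 (0.51, 0.0384).

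The HTC-like cluster was above the Epyc cluster by 0.61 ± 0.21 for Mef2c (edgeR adjusted p = 0.0251), where 36.5% of all genes and 5 of 7 members were called. This Mef2c call was lost without control library 1 (0.0559), control library 2 (0.106) or knockout library 3 (0.0731). The SOX genes were lower in the HTC-like cluster, Sox5 by 1.62 ± 0.22 (adjusted p = 5.6e-06), Sox6 by 0.68 ± 0.17 (0.00244) and Sox9 by 0.81 ± 0.19 (0.00205), and each of these 3 stayed called without any 1 library. Runx3 was lower in the HTC-like cluster by 0.48 ± 0.14 (adjusted p = 0.0125), a call lost without knockout library 1 (0.121) or knockout library 3 (0.0626). Against the Sfrp5 cluster, where 41.6% of all genes and 5 of 7 members were called, the HTC-like cluster was higher in Mef2c by 2.66 ± 0.24 and in Foxc1 by 0.73 ± 0.16 (adjusted p = 8.56e-09 and 0.00101). It was lower there in Sox5 by 1.87 ± 0.22 and in Sox6 by 0.69 ± 0.17 (6.34e-07 and 0.00211). Runx1 was lower by 0.88 ± 0.27 (adjusted p = 0.0123), a call lost without control library 1 (0.0971) or knockout library 3 (0.0942).

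Sox5 and Sox6 stepped down in CPM from the Sfrp5 to the Epyc to the HTC-like cluster in 5 of 5 libraries. Over these 5, which leave out knockout library 2, mean Sox5 was 108, 77.6 and 24.9 CPM and mean Sox6 was 167, 142 and 101 CPM. The first of these steps did not pass the test (Sox5 -0.25 ± 0.18 and Sox6 -0.01 ± 0.15, edgeR adjusted p = 0.363 and 0.980). From the Sfrp5 to the Epyc cluster the median gene moved by -0.17 on the log2 CPM scale, and the fitted values are relative to such a shift.

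The Chil1 cluster differed from the Epyc cluster in Sox9 (-0.90 ± 0.19, edgeR adjusted p = 0.00106) and Sox6 (-0.61 ± 0.16, 0.00588), where 25.7% of all genes and 5 of 7 members were called. Sox9 was lower there in 6 of 6 libraries. Mef2c was lower by 0.65 ± 0.21 (adjusted p = 0.0234), a call lost without control library 1 (0.109), control library 3 (0.0854) or knockout library 1 (0.133). Runx3 was lower by 0.52 ± 0.14 (adjusted p = 0.00618), a call lost without knockout library 1 (0.0607). Runx1 was higher by 0.83 ± 0.25 (adjusted p = 0.0179), a call lost without control library 1 (0.0904) or knockout library 1 (0.0503). Of the kept cells, the 10% with the highest doublet scores in each library made up 33.9% of this cluster, against 11.4% of the Epyc cluster, and its part in these differences was not tested.

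**Figure D4:**
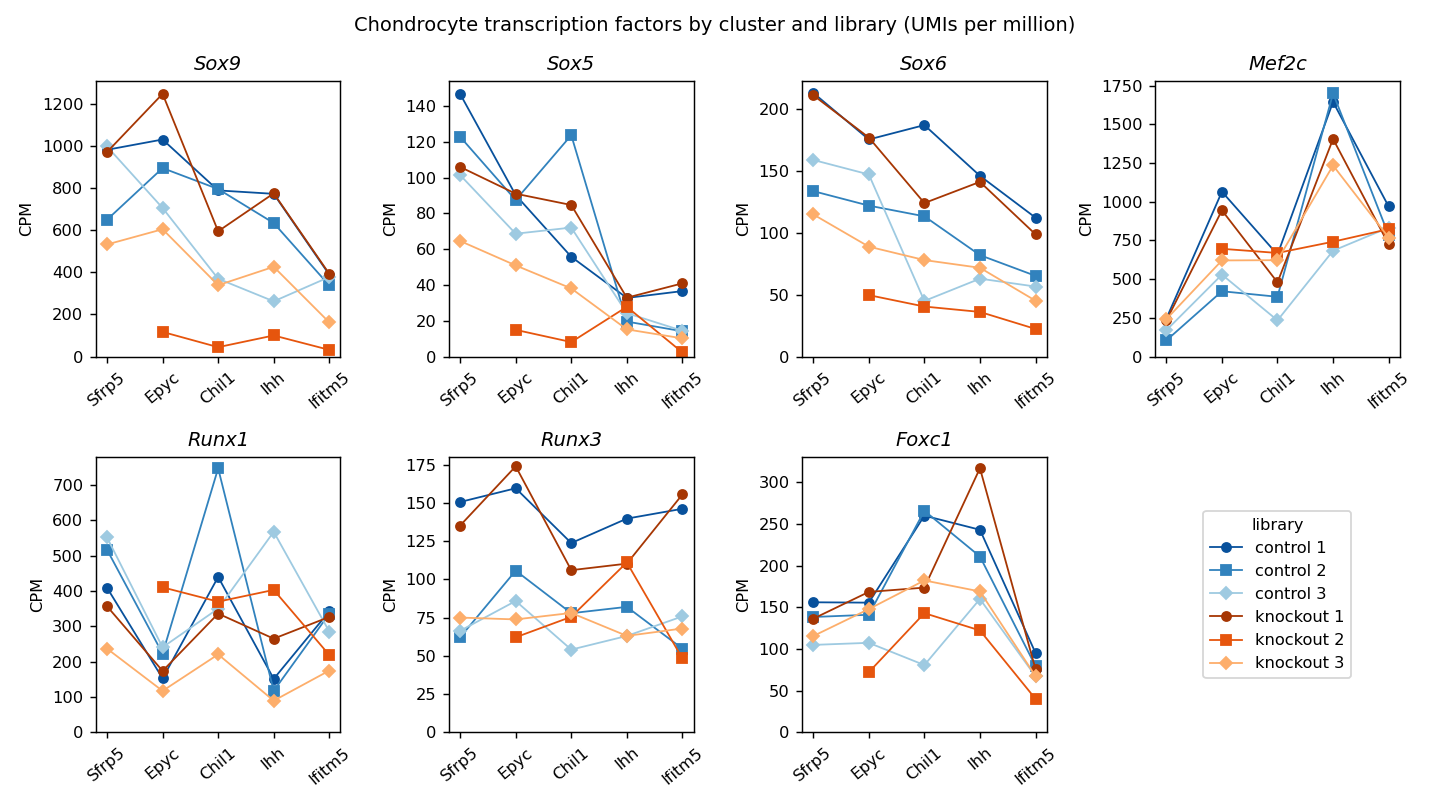
Level of 7 members (vertical axes, CPM from 0) in the 3 chondrocyte-like clusters (Sfrp5, Epyc and Chil1), the HTC-like cluster (Ihh) and an osteoblast-like cluster (Ifitm5), with a line per library where a cluster has at least 10 cells. Over the 5 libraries that have the Sfrp5, Epyc and Ihh clusters, mean Mef2c is 199 CPM in the Sfrp5 and 1334 CPM in the Ihh cluster, and mean Sox5 is 108 and 24.9 CPM.

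Osteoblast-like cells were then set against HTC-like cells, the step from cartilage towards bone. Foxc1 was 88.9, 52.6 and 59.3 CPM in the osteoblast-like cells of control libraries 1 to 3 and 77.5, 30.1 and 60.5 CPM in those of knockout libraries 1 to 3. None of these values reached the lowest HTC-like value of 122 CPM. Foxc1 fell by 1.63 ± 0.16 (log2, edgeR adjusted p = 2.72e-06), Sox9 by 1.24 ± 0.22 (0.000629) and Sox6 by 0.73 ± 0.14 (0.00105). These 3 of 7 members were called, where 37.2% of all genes were, and all 3 calls held in the 8 alternatives run. Mef2c (-0.28 ± 0.22, adjusted p = 0.345), Runx1 (0.11 ± 0.30, 0.804) and Runx3 (-0.37 ± 0.20, 0.163) did not pass. Sox5 at -0.93 ± 0.38 did not pass either (0.0693), although it did without knockout library 1 (0.0367) or knockout library 2 (0.0246). Among the osteoblast-like clusters, mean Mef2c was highest in that led by Dmp1, an osteocyte gene, at 1475 ± 336 CPM (5 libraries), beside 818 ± 84.0 in the Ifitm5 and 746 ± 149 in the Bglap cluster.

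The members were read beside 46 other transcription factors and cofactors of chondrogenesis and hypertrophy. Of the 44 tested between HTC-like and chondrocyte-like cells, 9 rose and 18 fell, where 15.1% of all genes were called higher and 18.7% lower, with a median log2 change of -0.30 against -0.01 over all genes. The largest changes were Gli1 (-3.16 ± 0.24), a target of hedgehog signalling, Epas1 (3.07 ± 0.25), which encodes a hypoxia-inducible factor, and Barx2 (-2.79 ± 0.41). Runx2, the main driver of hypertrophy and of osteoblasts, rose by 1.26 ± 0.17, Mef2a, a paralog of Mef2c, by 0.83 ± 0.17, and Hdac4, which restrains MEF2 and RUNX2 proteins, fell by 0.80 ± 0.17. Cbfb, the partner of all RUNX proteins, fell by 0.62 ± 0.16. Between osteoblast-like and HTC-like cells, 15 of 42 rose and 11 fell, where 18.3% of all genes were called higher and 18.8% lower (median 0.10 against -0.01), led by Dlx3 (4.76 ± 0.30), Foxa3 (-4.20 ± 0.37) and Foxa2 (-3.91 ± 0.41). Gli1, Prrx1 and Sp7 are also in marker lists used to name clusters.

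The genotype labels were compared last. Piezo1, the mechanosensitive channel that was targeted, was 67.5, 43.8 and 49.8 CPM in the combined cartilage cells (chondrocyte-like and HTC-like) of control libraries 1 to 3 and 131, 51.6 and 47.0 CPM in knockout libraries 1 to 3. The groups overlapped, and knockout library 1 was highest (log2 difference 0.52 ± 0.39, edgeR adjusted p = 1.00). The 3′ reads can count Piezo1 transcripts with or without the floxed exons, which was not tested, so these values do not check the deletion. The study reports that it checked the knockout by immunofluorescence staining of calluses. In its single-cell data it reports lower Piezo1 in an HTC cluster that it ties to the knockout. All differences by genotype below rest on the labels.

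No member was called between the groups, and 0% of the 14828 genes tested were (233 genes at an unadjusted p below 0.05). In the combined cartilage cells, Sox9 was 958, 777 and 638 CPM in control libraries 1 to 3 and 1035, 84.5 and 523 CPM in knockout libraries 1 to 3. The highest and the lowest value were both in the knockout group. Its log2 difference was -0.51 ± 0.71 (adjusted p = 1.00), and it was 0.00 ± 0.37 without knockout library 2 and 0.34 ± 0.38 without knockout libraries 2 and 3. Sox6 at -0.36 ± 0.47 likewise moved to 0.00 ± 0.35 and 0.33 ± 0.36.

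Sox5 was 97.7, 103 and 80.2 CPM in the control and 88.1, 17.4 and 45.8 CPM in the knockout libraries, where only knockout library 1 was within the control range. Its difference of -0.85 ± 0.47 had an unadjusted p of 0.109 and became -0.47 ± 0.30 without knockout library 2. Mef2c was 870, 316 and 276 CPM in the control and 726, 688 and 651 CPM in the knockout libraries. The knockout values lay inside the control range, and the difference was 0.55 ± 0.45. HTC-like cells, in which Mef2c is higher, made up 18.2%, 2.52% and 1.78% of the combined cells in the controls and 13.5%, 24.2% and 24.2% in the knockouts, each in the order of the replicates. In chondrocyte-like cells alone the difference of Mef2c was 0.55 ± 0.42, and the part of the HTC-like share was not tested. Differences of Runx1 (-0.38 ± 0.38), Runx3 (0.00 ± 0.38) and Foxc1 (0.09 ± 0.31) were about as large as their SE or smaller.

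**Figure D5:**
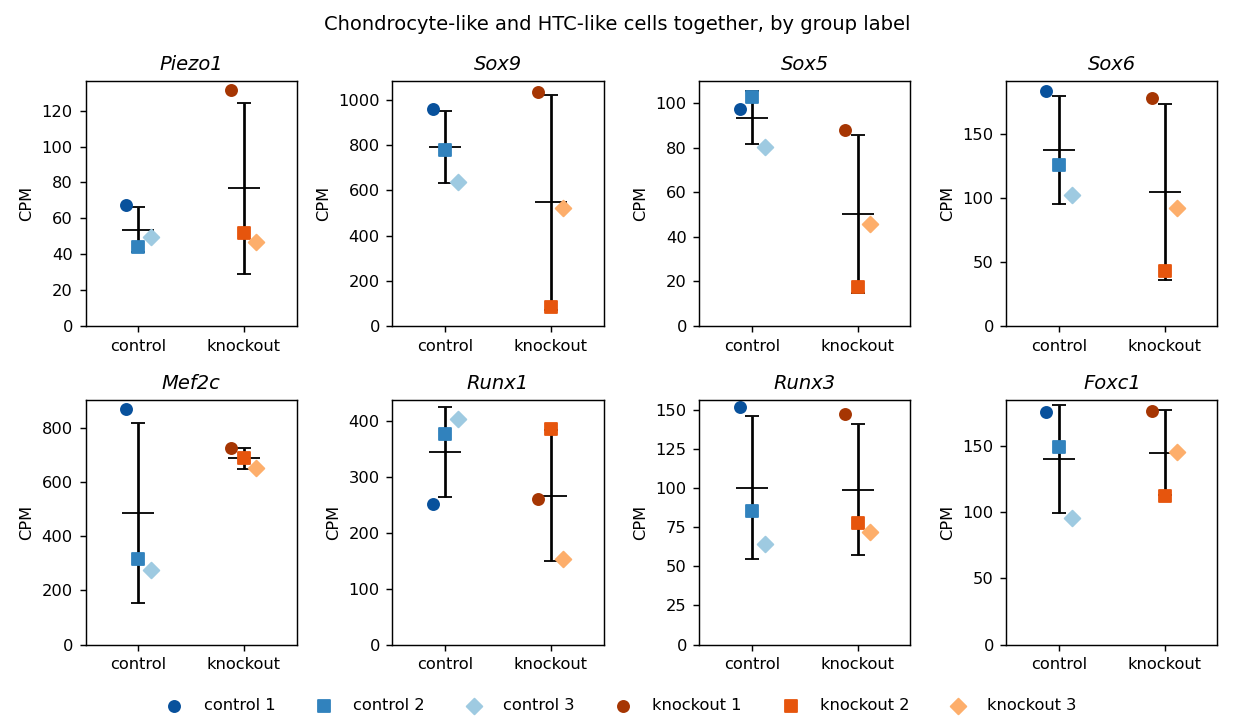
Level of Piezo1 and 7 members (vertical axes, CPM from 0) in the combined chondrocyte-like and HTC-like cells, with a point per library and the mean ± SD of the 3 libraries of each group. The groups overlap for every gene, and Sox9 in knockout library 2 is at 84.5 CPM against 523 to 1035 CPM in the other libraries.

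The low SOX values of knockout library 2 were not limited to cartilage. Of the 14 classes with at least 10 cells in every library, this library had the lowest Sox9 in 14, the lowest Sox5 in 10 and the lowest Sox6 in 7. The 14 include endothelial-like (mean Sox9 21.2 CPM) and macrophage-like cells (19.4 CPM), where Sox9 was read as background above. They also include PSC-like (355 CPM) and osteoblast-like cells (207 CPM). In neutrophil-like cells, which should lack it, Sox9 was 1.13 CPM in knockout library 2 and 17.9 to 87.4 CPM in the others. Its chondrocyte-like cells also had the highest sums of macrophage genes (341 CPM over 5 genes, against 105 to 195) and of neutrophil genes (762 CPM over 3 genes, against 63.2 to 675). The part of these in the SOX values was not tested.

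In chondrocyte-like cells alone (0% of 14645 genes called, 193 at an unadjusted p below 0.05) and in HTC-like cells alone (0% of 8831, 97 at an unadjusted p below 0.05), no member was called either. In HTC-like cells alone Mef2c differed by -0.23 ± 0.48. In the other 15 classes that could be tested, 0 of 89 pairs of member and class were called (smallest edgeR adjusted p = 0.386), and 1 had an unadjusted p below 0.05. Of these classes only the HSPC-like one, led by the granulocyte-lineage genes Elane, Prtn3 and Mpo and compared over 2 libraries against 2, had any gene called, 0.0309% of its genes, 0.0206% higher and 0.0103% lower. The change from chondrocyte-like to HTC-like cells was also compared between the groups, and 0% of 14883 genes differed in it (361 at an unadjusted p below 0.05). The log2 change of Mef2c was 1.63 in the control and 0.83 in the knockout libraries, a difference of -0.80 ± 0.39 (unadjusted p = 0.0531, edgeR adjusted p = 1). For Sox5 the change was -1.97 in the control and -1.54 in the knockout libraries (difference 0.51 ± 0.43).

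None of 44 other transcription factors, 22 cartilage matrix genes known as targets of the SOX trio and 10 hypertrophy genes was called by genotype in the combined cartilage cells. Their median log2 differences were -0.13, -0.28 and 0.43, against -0.01 over all genes, in cells whose HTC-like share differed between libraries as given above. The part of this share in the medians was not tested. In chondrocyte-like cells alone the medians were -0.10, -0.17 and 0.30, and in HTC-like cells alone they were -0.05, -0.68 and -0.22.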

How the data were processed

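Fracture callus cells were profiled in 6 10x 3′ libraries. The deposited values are UMI counts per gene and cell, which the authors made with Cell Ranger (6.1.1 or 6.1.2 per the file headers) on GRCm38, and the submitters' notes also name Seurat. Total counts are 57626530 to 103784364 per library. Replicate 3 of each group lists fewer genes, so the 52081 shared genes were used.

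Of 46944 barcodes, 44698 passed the filters (a minimum of 500 UMIs and 200 genes, and mitochondrial UMIs of no more than 20%), and 3046 doublets were removed by Scrublet score (0.8% per 1000 cells). Libraries were integrated with Seurat 5.3.0 (2000 variable genes, 30 components, without the members and the other listed transcription factors) and clustered with leidenalg 0.10.2 (20 neighbours, resolution 0.8) in scanpy 1.11.5. A cluster was named from at least 3 markers found in 25% of its cells at 2-fold. Counts were summed per library and class (at least 10 cells) and tested with edgeR 4.0.16 (quasi-likelihood F test, TMM, filterByExpr, two-sided, Benjamini-Hochberg adjustment over all genes, threshold 0.05), with library as a block between classes and with group alone for genotype. CPM is a gene's UMIs per 1000000 UMIs of its sum. The cluster fit, the test of the stage change between groups and some alternatives were added after seeing the data. The members and gene lists were chosen with earlier results of these data known. Besides the members and Piezo1, the text names for each member the 3 genes most alike over classes (log2(CPM + 1)) and the transcription factors with the largest changes or a known tie to a member. The sources differ on how many mice were used, so p-values measure the spread between libraries, whether single mice or pools. Floors are 3 counts, and tests were checked on simulated counts. DESeq2 1.42.0 was an alternative. Knockout library 3 differs from the others in Xist and Y-linked genes, against the stated use of male mice, so sex and genotype cannot be told apart in it.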

Additional observations from a re-analysis of the deposited data

How the results depend on the processing

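Without a filter on low counts, 16 genes in the combined cartilage cells, 5 in chondrocyte-like and 17 in HTC-like cells passed by genotype, and 11 did in HTC-like cells with more doublets removed. Leaving out 1 library gave 0 to 1 in HTC-like cells. No member passed in any of these. Runx3 by genotype, near 0, was -0.0091 without the filter, -0.0836 without replicate 3 of both groups, -0.0080 with a stricter filter on cells, -0.0080 with more doublets removed, -0.043 at resolution 0.4, -0.0075 at resolution 1.2, -0.073 with unnamed stromal clusters and -0.066 with few-UMI clusters counted. Without replicate 3 of both groups, Runx1 was 0.0095 and Foxc1 -0.186. Sox9 was 0.074 without integration. Without knockout libraries 2 and 3, Sox9 was 0.34 and Sox6 0.33. Leaving out 1 library, differences by genotype ranged from -0.34 to 0.41 for Runx3, -0.12 to 0.26 for Foxc1, -1.23 to 0.00078 for Sox9 and -0.89 to 0.0042 for Sox6. In the same fits the sign was kept for Mef2c (0.27 to 1.23), Sox5 (-1.39 to -0.47) and Runx1 (-0.72 to -0.14). Against erythroid-like cells Sox6 was -0.0029 with DESeq2 size factors, and against the Gdpd2 and Kcnk2 cluster Foxc1 was 0.44 without integration.

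The genes called between HTC-like and chondrocyte-like cells ranged from 2960 to 5533 without 1 library, and class pairs called from 95 to 111 over all alternatives. Without 1 library, Runx1 between osteoblast-like and HTC-like cells ranged from -0.07 to 0.41, and the stage difference between groups ranged from -0.12 to 0.96 for Runx1, -0.21 to 0.24 for Runx3 and -0.381 to 0.0866 for Foxc1. Thinning gave shares of 26.8% for Sox9, 3.94% for Sox5, 6.71% for Sox6, 16.2% for Mef2c, 13.3% for Runx1, 4.12% for Runx3, 0% for Nkx3-2 and 7.10% for Foxc1. The cause of these changes was not tested, apart from the depth removed by thinning.

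Deviations from the group mean correlated at r = 0.27, -0.16 and -0.10 between the libraries of replicate numbers 1, 2 and 3. Deviations from a mean of 3 libraries sum to 0, so this check cannot tell whether the numbers pair the libraries. Replicate 1 of both groups had the fewest barcodes (4603 in control and 3482 in knockout). Replicate 3 of both groups lists 55357 genes, against 55450 in the others. With the replicate number as a block, 0 genes passed by genotype, and the differences were -1.0001 for Sox9, -1.07 for Sox5, -0.54 for Sox6, 0.73 for Mef2c, -0.42 for Runx1, 0.02 for Runx3 and 0.09 for Foxc1. Not every library correlated best with its own number. Without integration the HTC-like contrasts gave no value. Alternatives for the osteoblast-like and cluster contrasts, few-UMI clusters and knockout libraries 2 and 3 were chosen after seeing the data. With 3 libraries a group and 72 chondrocyte-like cells in knockout library 2, differences by genotype of about the SEs given were not detectable.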

Other observations

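A pair of clusters left unnamed for their few UMIs carried cartilage genes. In the larger one (4152 cells, median 772 UMIs, led by Mir6236 and Lars2 with Col10a1), Sox9 was 505, 371 and 248 CPM in control libraries 1 to 3 and 448, 16.03 and 246 CPM in knockout libraries 1 to 3. Knockout library 2 was again lowest. Mef2c in it was 676, 456 and 193 CPM in the control and 494, 306 and 746 CPM in the knockout libraries. In the smaller one (508 cells), Mef2c was 1710, 1165 and 366 CPM in the control and 1627, 1304 and 1235 CPM in the knockout libraries. Runx1 there was 480, 845 and 1386 CPM in the control and 845, 731 and 275 CPM in the knockout libraries. Both genes overlapped between the groups in both clusters. Nkx3-2 had 0 UMIs in both.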
